A study of Homo sapiens with 3 samples.

Results

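Histone lysine demethylases are enzymes that remove methyl groups from lysines of the histone tails. The genes described here are KDM6B and 9 further members of the KDM series of names: KDM1A, KDM2A, KDM2B, KDM3A, KDM4A, KDM4B, KDM5A, KDM5B and KDM7A. They were taken from the deposited expression table by gene symbol. They make up 10 of its 16662 genes and 10 of the 17 entries with a numbered KDM name. KDM6B was picked because its level was at least 2-fold higher with both HHLA3 siRNAs, so its ratios to the control siRNA are given as a description and nothing is supported with them.

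Total RNA was sequenced from H1975 cells, a long-established human lung adenocarcinoma line with mutant EGFR, after transfection with small interfering RNAs (siRNAs). One library came from cells given the control siRNA, siNC, and 1 library each from cells given siHHLA3-1 or siHHLA3-3, differently numbered siRNAs against HHLA3. All 3 cultures were transfected at about 70% confluency, stayed without serum for 6 h and then spent 24 h in medium with 10% serum. The labels assign each library a batch of its own, and the siRNA therefore cannot be told apart from the batch. Without replicates there was no test, and every statement describes these 3 libraries. Both knockdown libraries were compared with the same siNC library, so a deviation of siNC would enter both ratios.

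Methylation of lysines 4, 9, 27 and 36 of histone H3 marks active promoters, heterochromatin, Polycomb-silenced genes and transcribed gene bodies, respectively. Most demethylases carry a Jumonji domain, which uses iron, oxygen and 2-oxoglutarate to oxidise the methyl group; KDM1A instead uses flavin. KDM6B, also called JMJD3, opposes the methyltransferase of Polycomb repressive complex PRC2, and its transcript is known to be induced by inflammatory and stress signals in many cell types.

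The libraries held 26950852 to 35069930 reads. Levels are given as normalised CPM, that is, counts divided by the library total after adjustment with a factor of 0.978 to 1.01 (TMM, the trimmed mean of M values). Ratios are log2 of (CPM + 1) over (CPM + 1), and intervals are exact 95% intervals that cover counting error only. HHLA3 itself was at 5.99 CPM with siNC, 1.55 CPM with siHHLA3-1 and 0.735 CPM with siHHLA3-3, a log2 ratio of -1.45 and -2.01. Of the lung epithelial and adenocarcinoma markers, 9 of 10 were listed, with summed levels of 4190 to 5338 CPM. One of 6 fibroblast, 1 of 5 leukocyte, 1 of 4 endothelial and 1 of 3 squamous markers were listed. Mitochondrially encoded genes took 5.93% to 6.24% of reads. In bulk RNA, fewer cells that express a gene and less RNA of it per cell cannot be told apart.

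Short stretches of sequence are shown first because 2 of the 10 transcripts hold a 7-base string that an earlier scan of these same ratios had linked to one of the siRNAs. An siRNA can act on other transcripts through pairing of its seed with their 3' UTRs. The sources used here give no siRNA sequence, so it is unknown whether these strings match a seed, and their part in the values below was not tested. CAGAATG was linked to siHHLA3-1 and GTGAACT to siHHLA3-3. The median log2 ratio with siHHLA3-1 was -0.086 for genes with CAGAATG and -0.011 for genes without it. For GTGAACT with siHHLA3-3 the medians were -0.186 and -0.001. Since the strings came from these ratios, the medians are a description only. KDM5B and KDM7A, which hold CAGAATG, were at 1.33-fold and 1.27-fold the siNC level with siHHLA3-1. KDM7A, which also holds GTGAACT, was at 1.07-fold with siHHLA3-3. The matches below, in capitals within 27 bases of 3' UTR, were read 5′ to 3′ from GRCh38 on the minus strand at chr1:202727909-202727935 (KDM5B) and chr7:140090954-140090980 and chr7:140085336-140085362 (KDM7A):
KDM5B, CAGAATG: taagctttctCAGAATGttggcaaatc
KDM7A, CAGAATG: gcccgaagaaCAGAATGaacctgatgc
KDM7A, GTGAACT: tttcaaatctGTGAACTttggagaggg

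The KDM5B site shown starts at base 1725 of the 4763-base 3' UTR of transcript KDM5B-217; a further 3 CAGAATG sites, not shown, lie in the separate 3' UTR of 2949 bases of KDM5B-235. In KDM7A the sites start at bases 124 and 5742 of a 3' UTR of 6348 bases. CAGAATG was found in the 3' UTRs of 18.7% of 11790 genes searched, and GTGAACT in those of 12.6%. Long 3' UTRs hold such strings more often: among genes within 20% of the length of the KDM5B 3' UTR, 43.1% held CAGAATG. For the length of KDM7A these shares were 53.2% for CAGAATG and 35.0% for GTGAACT. KDM6B, with a 3' UTR of 1275 bases, held neither string, and neither did the other 7 genes.

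KDM6B (ENSG00000132510; GENCODE 29, GRCh38, chr17:7839904-7854796, plus strand) encodes a demethylase of H3K27. Its level was 31.9 CPM with siNC (interval 30.0 to 33.9), 71.7 CPM with siHHLA3-1 (69.0 to 74.6) and 65.2 CPM with siHHLA3-3 (62.2 to 68.3). Both knockdown libraries lay above siNC, and none of the 3 intervals overlapped. The level was 2.25-fold that of siNC with siHHLA3-1 (interval 2.09 to 2.42), a log2 ratio of 1.14, and 2.04-fold with siHHLA3-3 (1.89 to 2.21), a log2 ratio of 1.01. With siHHLA3-3 it was slightly lower than with siHHLA3-1, a log2 ratio of -0.14. Of the 13879 genes whose mean reached 1 CPM, 75 had a higher ratio than KDM6B with siHHLA3-1 and 105 with siHHLA3-3.

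**Figure D1:**
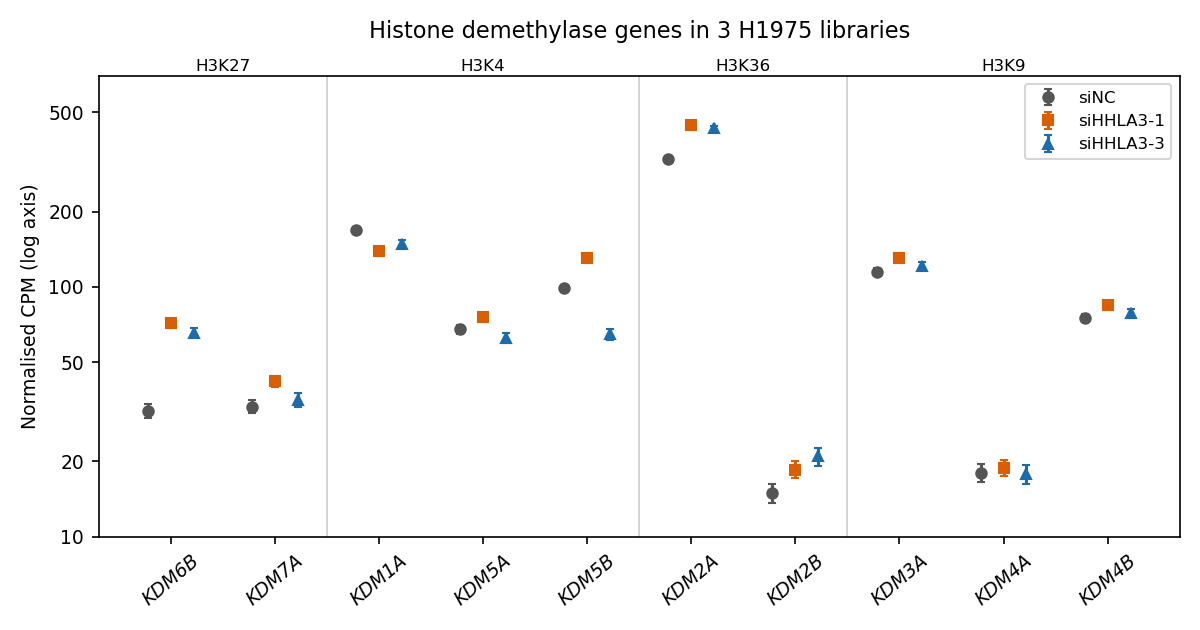
Normalised CPM of the 10 demethylase genes on a log axis, grouped by the histone lysine they are best known for, with 1 point per library and bars for the exact 95% Poisson interval. KDM6B is at 31.9 CPM with siNC and at 71.7 and 65.2 CPM with the HHLA3 siRNAs, whereas KDM5B is highest with siHHLA3-1 (131 CPM) and lowest with siHHLA3-3 (64.5 CPM).

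KDM6B was the only one of the 10 genes that reached 2-fold against siNC, a ratio of at least 1 on the log2 scale. With siHHLA3-1, 1 gene was at least 2-fold higher, against 0.973% of those 13879 genes (all genes, below), and 0 were at least 2-fold lower, against 0.382%. With siHHLA3-3 the counts were likewise 1 higher, against 0.807% of all genes, and 0 lower, against 1.48%. At least 2-fold higher with both siRNAs was a property of 0.122% of all genes, which are 17 genes. Since KDM6B was chosen for these ratios, the counts say nothing about demethylases as a group. The next ratio below the 2-fold line was that of KDM2A with siHHLA3-1 (0.46) and that of KDM2B with siHHLA3-3 (0.46).

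The smaller differences were read as the number of log2 ratios above 0. With siHHLA3-1, 9 of the 10 genes lay above 0, against 48.2% of all genes, and their median was 0.24, against -0.01 over all genes. With siHHLA3-3, 6 of 10 lay above 0, against 48.5% of all genes, with a median of 0.07, also against -0.01. Between the knockdown libraries 2 of 10 were higher with siHHLA3-3, against 50.4% of all genes, and the median was -0.11, against 0.00 over all genes. KDM6B, chosen for its ratios, is among the genes counted above 0 against siNC with either siRNA, so these counts too are a description only. Without KDM6B the medians against siNC were 0.18 and 0.06. The interquartile range over all genes ran from -0.20 to 0.19 with siHHLA3-1 and from -0.20 to 0.18 with siHHLA3-3.

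**Figure D2:**
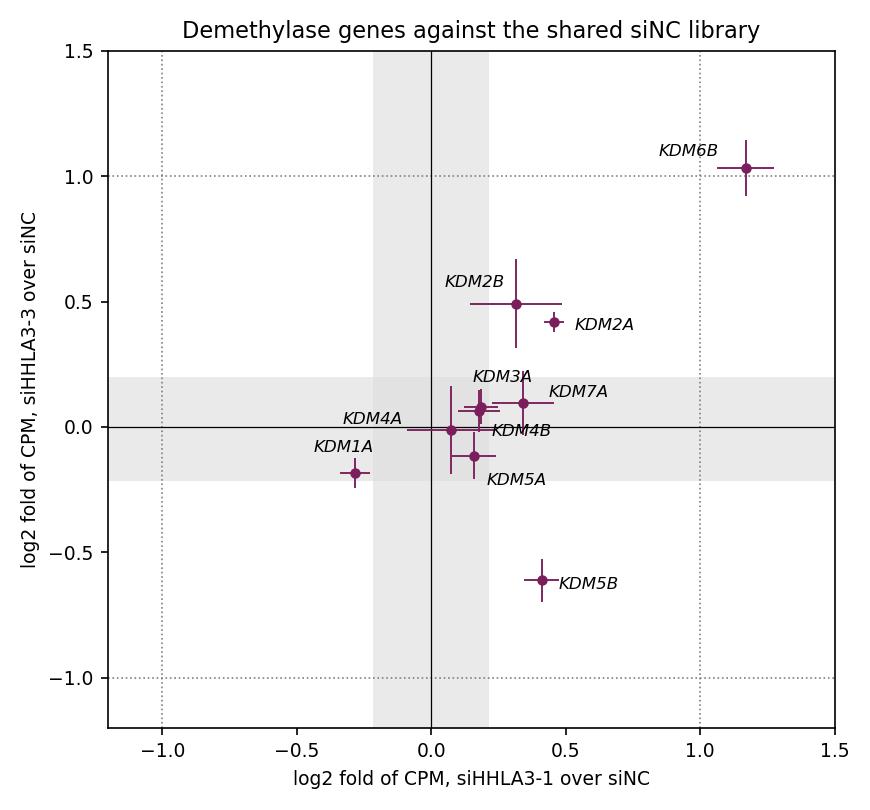
Log2 fold of CPM (no pseudocount) over siNC with siHHLA3-1 (x axis) and with siHHLA3-3 (y axis), with exact 95% counting intervals; dotted lines mark 2-fold and grey bands give the interquartile range of the 13879 genes. KDM6B stands at the upper right past 2-fold on both axes, KDM2A and KDM2B are above the bands on both, KDM1A is negative on both, and KDM5B has opposite signs; both axes share the siNC library.

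The remaining H3K27 enzymes differed less. KDM7A (chr7:140084746-140177035, minus strand), which acts on lysines 9 and 27, was at 33.1 CPM with siNC, 41.9 CPM with siHHLA3-1 and 35.3 CPM with siHHLA3-3. The fold was 1.27 (1.17 to 1.37) with siHHLA3-1 and 1.07 (0.98 to 1.17) with siHHLA3-3, where the interval covered 1. KDM7A-DT, a non-coding transcript that starts on the opposite strand next to the KDM7A start, had levels of 4.71, 6.81 and 4.70 CPM in the order siNC, siHHLA3-1, siHHLA3-3. Its fold was 1.45 (1.18 to 1.79) with siHHLA3-1 and 0.999 (0.783 to 1.27) with siHHLA3-3, so it too lay above siNC beyond counting error with the first siRNA.

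KDM6A, the X-linked counterpart of KDM6B and not one of the 10 genes, was at 84.4 CPM with siNC, 114 CPM with siHHLA3-1 and 102 CPM with siHHLA3-3. It was 1.36-fold (1.29 to 1.42) and 1.21-fold (1.15 to 1.28) the siNC level. Scaled by gene length, as TPM (transcript abundance scaled by length and library, the authors' values), KDM6B made up 58.6% of the KDM6A and KDM6B total with siNC, 70.2% with siHHLA3-1 and 70.5% with siHHLA3-3. On this scale KDM6B was the higher of the pair in all 3 libraries. In CPM, which is not scaled by length, KDM6A was the higher one in each library. The order therefore depends on the lengths behind the TPM values, which are not given in the sources used here.

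Among the H3K4 demethylases the genes went different ways. KDM5B (ENSG00000117139; chr1:202724495-202809470, minus strand), which removes methyl groups from trimethylated H3K4, was at 98.5 CPM with siNC (interval 95.1 to 102), 131 CPM with siHHLA3-1 (127 to 135) and 64.5 CPM with siHHLA3-3 (61.5 to 67.5). The knockdown libraries lay on opposite sides of siNC. With siHHLA3-1 the level was 1.33-fold that of siNC (1.27 to 1.39), and with siHHLA3-3 it was 1.53-fold lower (1.44 to 1.62). KDM5B was 2.03-fold lower with siHHLA3-3 than with siHHLA3-1 (1.92 to 2.15), a log2 ratio of -1.01. It was the 1 gene of the 10 that was at least 2-fold lower in that comparison, where 2.12% of all genes were; 0 of 10 were at least 2-fold higher, against 0.757% of all genes. Of all genes, 286 had a lower ratio than KDM5B between the knockdown libraries.

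Some cell type markers had the same order as KDM5B. The lineage factor NKX2-1 was at 65.7 CPM with siNC, 72.0 CPM with siHHLA3-1 and 35.0 CPM with siHHLA3-3. The endothelial cadherin CDH5 was at 7.95, 19.2 and 3.01 CPM, and the collagen COL1A1 at 11.3, 24.5 and 10.9 CPM, in the same order of libraries; COL1A1 did not differ beyond counting error between siNC and siHHLA3-3. The remaining endothelial markers (3 of 4) and fibroblast markers (5 of 6) were not listed. The part of these differences in the KDM5B values was not tested.

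KDM5A (chr12:280129-389454, minus strand), a close relative of KDM5B, showed the same order over a narrower range, at 67.7 CPM with siNC, 75.6 CPM with siHHLA3-1 and 62.6 CPM with siHHLA3-3. The fold was 1.12 (1.05 to 1.18) with siHHLA3-1, and the level was 1.08-fold lower (1.02 to 1.15) with siHHLA3-3. As a share of the summed TPM of KDM5A, KDM5B and KDM5C, KDM5B took 11.6% with siNC, 13.9% with siHHLA3-1 and 7.69% with siHHLA3-3. In TPM, KDM5B (13.5, 18.7 and 9.26) was below KDM5A (19.3, 22.4 and 18.6) in each library, whereas in CPM, which is not scaled by length, its values were the higher ones. Which of the pair is higher, and the size of the share, thus depend on the lengths behind the TPM values.

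KDM1A (chr1:23019443-23083689, plus strand), also called LSD1, was the only one of the 10 genes below siNC in both knockdown libraries. It was at 169 CPM with siNC, 139 CPM with siHHLA3-1 and 149 CPM with siHHLA3-3. It was 1.22-fold lower (1.17 to 1.27) and 1.13-fold lower (1.09 to 1.18), log2 ratios of -0.28 and -0.18. The first of these ratios lies below, and the second inside, the interquartile range of all genes.

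The H3K36 demethylases KDM2A and KDM2B, which bind unmethylated CpG islands through a zinc finger, were higher in both knockdown libraries. KDM2A (chr11:67119269-67258087, plus strand) was at 324 CPM with siNC, 445 CPM with siHHLA3-1 and 433 CPM with siHHLA3-3, 1.37-fold (1.34 to 1.41) and 1.34-fold (1.30 to 1.37) the siNC level. KDM2B (chr12:121429097-121581015, minus strand), the subunit that brings a variant Polycomb repressive complex to CpG islands, was at 14.9 CPM with siNC (interval 13.6 to 16.3), 18.5 CPM with siHHLA3-1 and 20.9 CPM with siHHLA3-3 (19.3 to 22.7). Both knockdown values lay above the siNC interval, and the folds were 1.24 and 1.41. Per length KDM2A far exceeded KDM2B, with 96.5% to 96.9% of their summed TPM.

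The H3K9 demethylases differed least. KDM3A (chr2:86440647-86492716, plus strand), known as a target of hypoxia-inducible factors, was at 115 CPM with siNC, 131 CPM with siHHLA3-1 and 122 CPM with siHHLA3-3. KDM4B (chr19:4969113-5153595, plus strand) was at 75.1, 84.9 and 78.5 CPM, and KDM4A (chr1:43650158-43705515, plus strand) at 17.9, 18.8 and 17.8 CPM. Both KDM4 enzymes act on trimethylated H3K9 and H3K36. KDM3A and KDM4B were slightly higher with siHHLA3-1, at 1.14-fold (1.09 to 1.19) and 1.13-fold (1.07 to 1.19). With siHHLA3-3 KDM3A was at 1.06-fold (1.01 to 1.11) and KDM4B at 1.04-fold (0.99 to 1.11). The intervals of KDM4A covered 1 in each comparison, so a difference was not detectable at this depth. KDM4A-AS1 overlaps KDM4A on the opposite strand, and since no source used here states the use of strand in counting, reads of the pair cannot be told apart. KDM4A-AS1 was at 1.87, 1.55 and 2.17 CPM.

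Per gene length, the order of the 10 genes by mean TPM was KDM2A, KDM1A, KDM3A, KDM6B, KDM5A, KDM4B, KDM5B, KDM7A, KDM4A and KDM2B. This order rests on the lengths behind the TPM values, which are not given, and in CPM it differs for some of the genes. KDM2A ran from 107 to 153 TPM and KDM1A from 90.8 to 106 TPM, and these ranges did not overlap by a narrow margin, since both genes were near 106 TPM with siNC. KDM1A also stood clear of KDM3A (29.5 to 35.0 TPM), and KDM4A (11.8 to 12.9 TPM) of KDM2B (3.74 to 5.49 TPM). All other neighbours in the order overlapped over the 3 libraries. KDM6B had 14.8 TPM with siNC, 34.6 TPM with siHHLA3-1 and 31.5 TPM with siHHLA3-3, and moved from the sixth place with siNC to the fourth with either HHLA3 siRNA. It made up 4.40% of the summed TPM of the 10 genes with siNC, 8.46% with siHHLA3-1 and 8.10% with siHHLA3-3. The sum itself was 335, 408 and 389 TPM, of which KDM1A and KDM2A together took 63.6%, 59.6% and 63.4%.

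**Figure D3:**
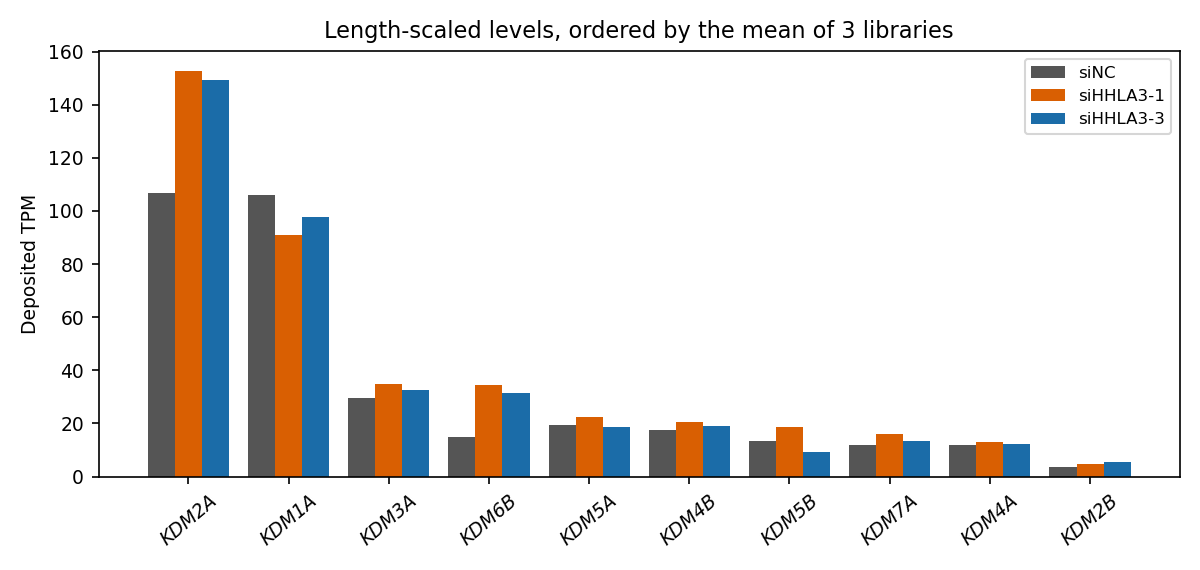
TPM as deposited for the 10 genes in each library, ordered by their mean over the 3 libraries, with bars from 0 and no error bars since each group is 1 library. KDM2A and KDM1A stand above 90 TPM in each library, KDM6B goes from 14.8 to 34.6 and 31.5 TPM, and KDM2B is lowest.

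KDM6B has a promoter window upstream of 2 annotated starts in RefSeq, and both are printed because they differ in base composition. The window of the start at the annotated gene body is chr17:7839667-7839916 and that of a start further upstream is chr17:7833967-7834216, both GRCh38.p14, plus strand, 250 bases 5′ to 3′. Capitals mark the only match to the motifs searched, a kappaB motif that begins 48 bases before the start:
KDM6B, upstream start: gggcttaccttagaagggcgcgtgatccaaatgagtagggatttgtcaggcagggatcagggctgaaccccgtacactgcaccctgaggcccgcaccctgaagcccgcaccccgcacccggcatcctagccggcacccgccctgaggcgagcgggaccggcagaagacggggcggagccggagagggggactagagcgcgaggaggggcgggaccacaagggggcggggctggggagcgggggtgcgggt
KDM6B, start at the gene body: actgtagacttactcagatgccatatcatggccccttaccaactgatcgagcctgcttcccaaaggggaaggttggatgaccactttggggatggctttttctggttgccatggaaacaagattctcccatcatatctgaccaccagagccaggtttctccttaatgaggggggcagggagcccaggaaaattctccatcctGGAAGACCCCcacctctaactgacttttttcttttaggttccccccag

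The upstream window was 70.4% G and C and the other 50.4%, against a median of 58.0% over 35116 RefSeq promoters. Gene-level counts do not show which start was used. The motifs searched on both strands were AP-1 (TGANTCA), the cyclic AMP response element (TGACGTCA), kappaB and the hypoxia core (ACGTG), in windows of 250 bases. The kappaB motif was in 9.96% of all promoters and in 2 of the 16 promoters of the 10 genes, 1 each of KDM6B and KDM2B. The hypoxia core was in 18.5% of all promoters and 3 of the 16 (KDM1A, KDM7A and KDM4B), AP-1 in 6.57% and 1 of the 16 (KDM3A), and the cyclic AMP element in 1.65% and 0 of the 16. A match is a string of letters and not a measured binding site.

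The genes beside KDM6B on the short arm of chromosome 17 did not share its ratios as a group. Of 9 neighbours listed, 7 were in the table and 6 reached a mean of 1 CPM. Of these 6, 0 reached 2-fold with either siRNA. Since 2-fold was rare over the whole table, this count does not set the neighbours apart. The median log2 ratios of the 6 were 0.05 with siHHLA3-1 and -0.09 with siHHLA3-3. KCNAB3, a potassium channel subunit whose gene lies 67063 bases downstream, was at 3.93 CPM with siNC, 6.56 CPM with siHHLA3-1 and 7.27 CPM with siHHLA3-3, log2 ratios of 0.62 and 0.75. TRAPPC1, beyond it, had ratios of 0.11 and 0.21. NAA38, 1889 bases downstream on the opposite strand, had -0.29 and -0.32, and WRAP53, 136402 bases upstream, -0.30 and -0.12. TMEM88, which begins 269 bases past the end of KDM6B on the same strand, is named because of its values: it had 2 reads with siNC, 29 with siHHLA3-1 and 14 with siHHLA3-3. The counting interval of its ratio to siNC ran from 3.31-fold to 113-fold with siHHLA3-1 and from 1.89-fold to 74.8-fold with siHHLA3-3, on a count under the floor of 3 reads in siNC. Like KDM6B it was lowest with siNC and highest with siHHLA3-1.

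**Figure D4:**
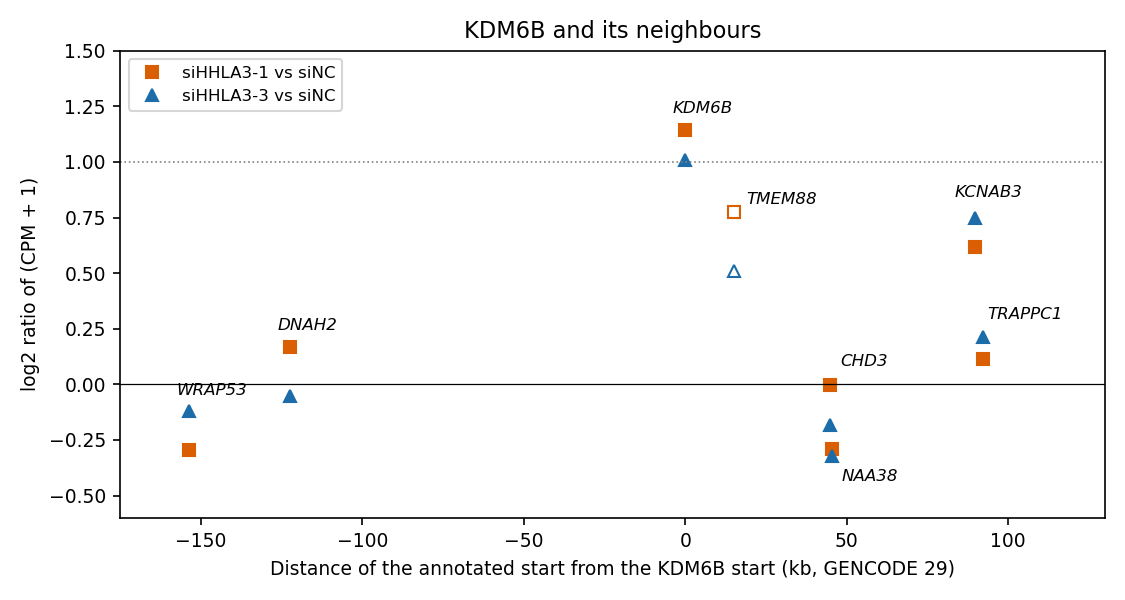
Log2 ratios of (CPM + 1) to siNC for KDM6B and the 7 listed neighbours found in the table, against the distance in kb of their annotated start from that of KDM6B; open symbols mark TMEM88, whose mean is under 1 CPM, and the dotted line marks 2-fold. On this scale KDM6B alone passes 2-fold, KCNAB3 is at 0.62 and 0.75, and NAA38 and WRAP53 are below 0 with both siRNAs. Without the pseudocount the fold of TMEM88 also exceeds 2 with both siRNAs, on 2 reads with siNC.

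The pattern of KDM6B was most like that of SHFL, an inhibitor of viral frameshifting, by the distance between the pairs of log2 ratios to siNC over 11216 genes whose mean reached 5 CPM. SHFL was at 29.1 CPM with siNC, 64.1 CPM with siHHLA3-1 and 59.0 CPM with siHHLA3-3, a distance of 0.0321. DTX3, a ubiquitin ligase of the Deltex family, followed at 0.0546, with ratios of 1.14 and 1.06. ZNF616, a zinc finger gene, was at 0.0756, with 1.11 and 1.08. GOLGA8A, at 0.111, has near-identical copies, so its counts are uncertain. BTG2, an antiproliferative gene, was at 0.119, with 1.17 and 0.89. The likeness rests on 2 ratios that share siNC.

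The other listed genes of the lysine demethylase and Jumonji-domain families were spread around 0. Of 16 listed, 15 were measured, 0 reached 2-fold with either siRNA, 9 lay above 0 with siHHLA3-1 and 8 with siHHLA3-3, and the medians were 0.03 and 0.05. The greatest mean ratios in size were those of HR, a corepressor with a Jumonji domain, at -0.36 and -0.42, KDM6A at 0.43 and 0.28, HSPBAP1 at 0.28 and 0.36, and KDM8 at -0.26 and -0.35.

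The complexes that oppose or contain these demethylases had 0 genes at 2-fold with either siRNA. Given how few of all genes reached 2-fold, this count does not set the complexes apart. All 12 genes of PRC2, which deposits the H3K27 methylation that KDM6B removes, were measured. Their medians were -0.11 with siHHLA3-1 (4 above 0) and 0.02 with siHHLA3-3 (7 above 0). JARID2, an accessory subunit, was at 0.64 and 0.04, PHF19 at -0.52 and -0.14, EZH1 at 0.38 and -0.02, and the core subunit EED at -0.14 and -0.13. The methyltransferase EZH2 had ratios of opposite sign, -0.24 with siHHLA3-1 and 0.31 with siHHLA3-3. In the CoREST complex of KDM1A, 10 of 12 genes were measured, with medians of 0.04 and -0.05, and 6 and 4 genes above 0. The reader subunit PHF21A was at 0.68 and 0.25, the scaffold RCOR1 at -0.18 and -0.09 and the deacetylase HDAC1 at 0.14 and 0.10. In the PRC1.1 complex of KDM2B, all 9 genes were measured, with medians of -0.02 and 0.08, and 4 and 5 genes above 0. RYBP (0.02 and -0.57) and the ubiquitin ligase RNF2 (-0.07 and -0.52) were lowest with siHHLA3-3, USP7 was at -0.45 and -0.20, and YAF2 at 0.19 and 0.33.

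The writers of the marks showed medians close to that of all genes. The 17 genes of the H3K4 methyltransferase complexes, which oppose KDM1A and the KDM5 enzymes, had medians of -0.01 and 0.08 (8 and 11 above 0), with SETD1B at 0.41 and 0.17, KMT2D at 0.35 and 0.08, MEN1 at -0.27 and -0.28 and PAGR1 at -0.13 and -0.35. The 7 H3K9 methyltransferases had medians of 0.04 and 0.04 (4 above 0 with each siRNA). Among them SUV39H1, which trimethylates H3K9 in heterochromatin, was at 32.6 CPM with siNC, 20.7 CPM with siHHLA3-1 and 23.5 CPM with siHHLA3-3, ratios of -0.63 and -0.45, and EHMT2 was at -0.30 and -0.20. SETDB2 was at 0.06 and 0.35 and PRDM2 at 0.17 and 0.21. The 10 methyltransferases of H3K36, H3K79 and H4K20 had medians of 0.00 and -0.03 (5 and 4 above 0), with DOT1L, the H3K79 enzyme, at 0.43 and 0.22, KMT5A at -0.26 and -0.39, KMT5C at 0.37 and -0.01 and SMYD2 at -0.43 and 0.06.

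Of the genes that share or supply the 2-oxoglutarate chemistry of the Jumonji enzymes, 13 of 14 were measured, with medians of -0.06 with siHHLA3-1 and -0.11 with siHHLA3-3 (6 and 5 above 0). FH, which removes fumarate, an inhibitor of these dioxygenases, was at 115 CPM with siNC, 89.7 CPM with siHHLA3-1 and 63.9 CPM with siHHLA3-3, ratios of -0.36 and -0.84. OGDH, which consumes 2-oxoglutarate in the citric acid cycle, was at 189, 198 and 112 CPM, ratios of 0.07 and -0.75. IDH2, which makes 2-oxoglutarate in mitochondria, was at -0.35 and -0.17, and the DNA demethylase TET3 at 0.28 and 0.25. FH and OGDH were the genes of this group farthest from siNC, both with siHHLA3-3.

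**Figure D5:**
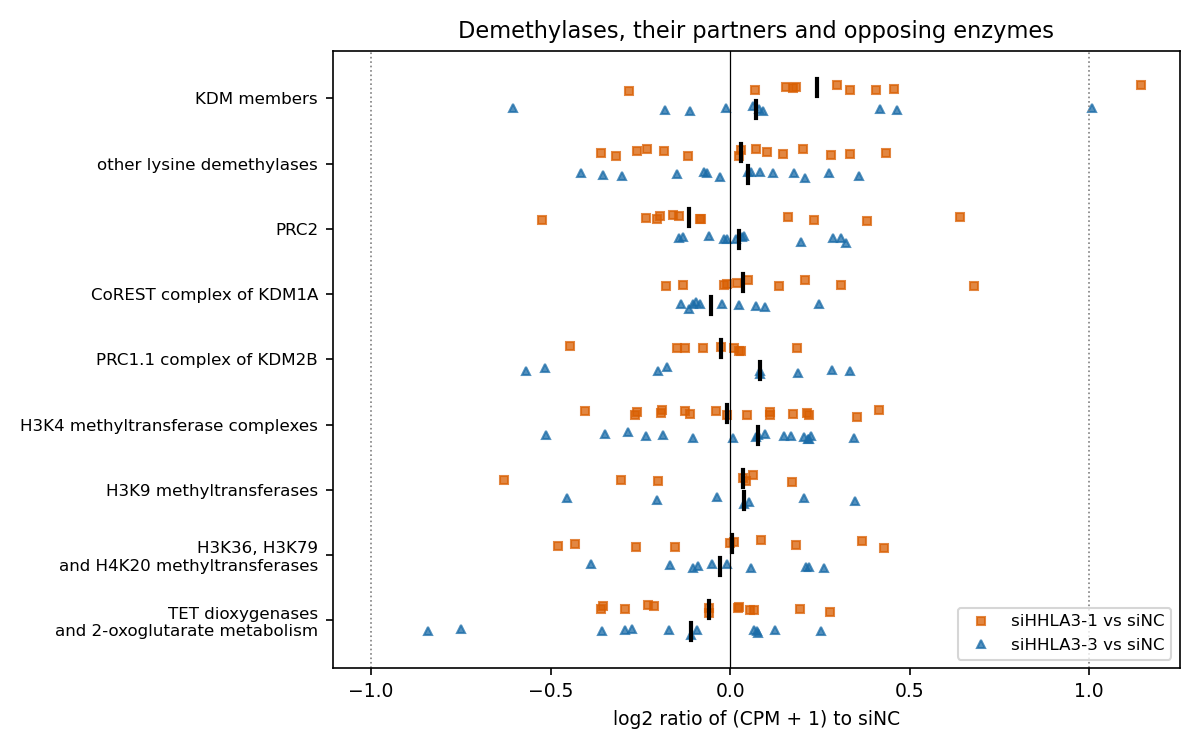
Log2 ratios of (CPM + 1) to siNC for each measured gene of the 10 demethylases and of 8 lists of related genes, with siHHLA3-1 as squares and siHHLA3-3 as triangles; black bars mark the median of each list and dotted lines 2-fold. KDM6B is the only gene past 2-fold in either comparison, and the list medians lie between -0.11 and 0.24.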

How the data were processed

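Total RNA of 3 H1975 cultures was sequenced, 1 library per siRNA. The authors deposited 1 table with 4 values per gene and library. Per the file headers these are counts, which are whole reads per gene, CPM scaled to the library total, and FPKM and TPM scaled by gene length. The deposited counts and CPM gave the library totals. Genes whose FPKM summed to under about 1.00 over the libraries are not listed. Per the submitters' processing notes, the build was hg19, and Bowtie2, HISAT, HISAT2 and TopHat2 were among the tools. Tool roles and versions, the strand setting, the annotation and the counting program are not given in the sources used here.

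Counts were scaled with TMM factors (edgeR 4.0.16, R 4.3.3). Log2 ratios used a pseudocount of 1 CPM, so they understate low genes; folds used none. Genes whose mean reached 1 CPM were kept (13879), and 2-fold was the threshold. A count of 3 corresponds to 0.0845 to 0.110 CPM. Intervals are exact 95% Poisson (levels) and binomial (ratios) intervals. No p-value was computed, since each group held 1 library. Python 3.11.15, scipy 1.17.1 and pandas 2.3.3 were used, and the scripts were tested on simulated data.

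The text names all 10 genes; up to 4 genes of each list, by the size of the mean of the ratios to siNC; the 5 genes nearest KDM6B; HHLA3; and cell type markers. One gene that this rule names is not reported here. The mean is small for genes whose ratios have opposite signs, which the rule can therefore pass over. TMEM88, KDM7A-DT, KDM4A-AS1, EZH2 and the markers beside KDM5B were singled out after their values were seen. The members and lists were chosen with earlier results of these data known. Gene positions and 3' UTRs come from GENCODE 29 and promoters from RefSeq (GRCh38.p14), not from the build of the notes, and were matched by gene identifier or symbol. All 10 genes matched in both, with 16 promoters. Alternatives were size factors from DESeq2 1.42.0, the deposited TPM or FPKM, a pseudocount of 0.1, library totals alone, other filters (none, or a mean of 5 CPM), a 1.5-fold threshold, TPM or FPKM with no pseudocount (added after seeing the data) and a counting interval added to size.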

Additional observations from a re-analysis of the deposited data

Results flagged for a closer look

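KDM5B and KDM5A stood out because the HHLA3 siRNAs gave ratios of opposite sign, with counting intervals that excluded no difference on both sides. For KDM5B the log2 ratio to siNC was 0.41 with siHHLA3-1 and -0.60 with siHHLA3-3. For KDM5A it was 0.16 and -0.11. Each group held 1 library and both ratios share siNC, so the difference between the siRNAs was not tested.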

How the results depend on the processing

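No paired analysis was possible because each group held 1 library, and for the same reason no replicate could be left out. The number of demethylase genes at 2-fold with siHHLA3-1 was 1 under each alternative. With siHHLA3-3 it was 1 except with the deposited FPKM (0) and with a 1.5-fold threshold (2, KDM6B higher and KDM5B lower). Between the knockdown libraries it was 1 except with the deposited TPM (0) and FPKM (0). These lost calls used a pseudocount of 1 on the scale of TPM or FPKM. With no pseudocount, an alternative chosen after seeing the data, the count was 1 in each comparison with either unit; the KDM6B log2 ratio with siHHLA3-3 was then 1.08 in FPKM and slightly higher in TPM, and that of KDM5B between the knockdown libraries -1.02 and -1.03. Over all settings, KDM6B ran from 1.05 to 1.23 with siHHLA3-1 and was lowest with siHHLA3-3 at 0.93 (FPKM with the pseudocount). KDM5B ran from 0.38 to 0.47, from -0.61 to -0.43 and, between the knockdown libraries, from -1.03 to -0.81. Of 30 further values (the ratios of the genes other than KDM6B and the medians), 30 moved by less than counting error with DESeq2 size factors, 30 with the smaller pseudocount, 28 with library totals alone, 25 with TPM, 26 with FPKM, and 26 and 28 with these units and no pseudocount. The 1 sign change was KDM4A with siHHLA3-3, under library totals, TPM and FPKM. The cause of the other differences was not tested. Depth limits KDM4A, whose intervals covered 1 in each comparison, and TMEM88 with 2 reads in siNC; the spread between cultures is unknown.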
